A study of Mus musculus with 3 samples.

Results

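The transcripts of bone morphogenetic protein (BMP) signalling and of the Inhibitor of DNA binding (Id) genes were followed in RNA immunoprecipitation sequencing (RIP-seq) of YTHDF2, which recognises the RNA modification N6-methyladenosine (m6A) and speeds the breakdown of the RNAs that carry it. The 10 genes were taken by symbol from the count table, which lists 49997 genes, and all 10 had enough counts to be tested. They are *Bmp4* (ligand), *Bmpr1a* and *Bmpr2* (receptors), *Smad1* and *Smad5* (signal carriers), *Smad6* (inhibitor) and *Id1*, *Id2*, *Id3* and *Id4* (targets). The cells were E14 mouse embryonic stem cells (ESCs), grown on gelatin with serum replacement and leukemia inhibitory factor (LIF), and treated for 24 h with doxycycline (Dox). In the cell system of the study Dox switches on a *Dux* transgene, which drives some of the cells into a state like the 2-cell embryo (2C), and a tdTomato reporter is driven by the *Mervl* promoter. Dox treatment is given by the description of the series and not by the labels of single samples, and all 3 libraries were taken as Dox-treated. They are 1 input library and 2 libraries of RNA recovered with an antibody to YTHDF2 (IP replicates 1 and 2), so RNA bound by the antibody was compared with input RNA and no change with Dox was measured. The labels give the tissue as embryo and do not say whether the IP replicates came from separate cultures, and no IP with a control antibody was used here.

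BMP ligands bind a complex of type I and type II receptor kinases at the cell surface. The type I receptor then phosphorylates SMAD1 and SMAD5, which enter the nucleus with SMAD4 and switch on target genes, among them the Id genes and *Smad6*, whose product inhibits the pathway in turn. ID proteins lack a DNA-binding region and hold back basic helix-loop-helix (bHLH) transcription factors by pairing with their E protein partners. In mouse ESCs, BMP4 acts through SMADs and ID proteins together with LIF to hold back differentiation.

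The libraries held between 35259827 and 36986994 counts, and each end of a read pair was counted on its own. All 8 ESC markers examined, such as *Pou5f1* and *Nanog*, had at least 16857 counts in the input. The 6 transcripts of the 2C-like state had a summed level of 1770 CPM (counts scaled to libraries of equal size) in the input and 2730 CPM in each IP library. Most of this rise came from *Zscan4c* (19319 counts in input, 43891 and 43848 in IP) and *Zscan4d* (31055, 42032 and 43052). *Usp17la* stayed near level, at 10220, 10036 and 10670 counts, and *Duxf3* had 281, 582 and 319. Markers of other lineages were far below these. The 5 trophectoderm genes, of which 3 were at or below a floor of 3 counts in the input, summed to 1.87 CPM in the input and 7.53 and 5.57 CPM in IP. Most of these counts came from *Ascl2* (52 in input, 227 and 174 in IP). The 5 primitive endoderm genes summed to 12.6 CPM against 19.7 and 16.2 CPM, the 4 mesoderm genes to 28.3 CPM against 55.1 and 52.5 CPM, and the 4 neural genes to 87.2 CPM against 171 and 163 CPM. Most mesoderm counts came from *Eomes* (922 in input, 1891 and 1862 in IP), while *T* went from 47 to 43 and 12. The neural rise came from *Tubb3* (2596, 4799 and 4708 counts) and *Sox1* (374, 1285 and 1175). *Pax6* (111, 106 and 97) and *Neurog1* (4, 2 and 0) did not rise. The sum of the 5 fibroblast genes, of which 2 were at or below the floor, was lower in IP, at 30.5 CPM against 15.5 and 16.7 CPM. Most of that sum was *Thy1* (994 counts in input, 498 and 543 in IP), and *Col1a1* had 75, 57 and 62 counts. The part of such cells in the levels of the members was not tested. As the cells were sequenced in bulk, fewer cells of a state and less RNA per cell cannot be told apart.

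The short motif GGACT is a common form of the sequence in which m6A is placed, and m6A is known to gather around stop codons. The motif was searched on the sense strand of the RefSeq Select transcript of each gene (assembly GRCm38.p6, which is mm10). All 10 transcripts held GGACT, as did 91.3% of the 15011 coding genes tested. Counting only motifs that lie whole within 200 bases on either side of the stop codon, 6 of the 10 members held it, against 40.0% of the coding genes. *Id1* held 3 such motifs, *Id2*, *Id3* and *Bmpr2* held 2 each, and *Bmp4* and *Smad5* held 1 each. At least 2 were found in 9.99% of the coding genes. The nearest motif of each of these 6 genes and the further motifs within this window in the Id genes are printed below, since *Id1*, *Id2*, *Bmp4* and *Id3* are the members with most GGACT per kilobase of transcript, at 3.21, 3.14, 2.43 and 2.10. Each line holds 25 bases in the direction of the transcript, with the motif in capitals, and all but the second line of *Id1* and of *Id2* lie in the 3′ UTR.
Id1, chr2:152737027-152737051, + strand: gggaccagatGGACTccagcccttc
Id1, chr2:152736673-152736697, + strand, coding: cggaggccggGGACTgcctgtccgc
Id1, chr2:152737112-152737136, + strand: cgcagccaccGGACTcttggcggat
Id2, across an exon junction, - strand: tggcatttggGGACTtttttttttc
Id2, chr12:25095760-25095784, - strand, coding: agatcgccctGGACTcgcatcccac
Id3, chr4:136144907-136144931, + strand: tgggaccctgGGACTctgggaccct
Id3, chr4:136145029-136145053, + strand: cccgagagaaGGACTgaacttgggt
Bmp4, chr14:46383720-46383744, - strand: ccctatagctGGACTtttatcttaa
Bmpr2, chr1:59870594-59870618, + strand: cctgcagcaaGGACTtgctttaaat
Smad5, chr13:56737501-56737525, + strand: tatttttagtGGACTtgttttaatt

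The motif began 26 bases after the start of the stop codon in *Id1*, 18 in *Id2*, 35 in *Smad5*, 63 in *Id3*, 121 in *Bmpr2* and 127 in *Bmp4*. In *Smad1* the nearest motif lay outside the window, at 230 bases, and in *Id4* it lay at 1884 bases, deep in the 3′ UTR. In *Bmpr1a* and *Smad6* the nearest motif was in the coding sequence, at -692 and -1072 bases. A match to these letters is not a measured m6A site.

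The question of the comparison was which of these transcripts are recovered with YTHDF2. *Bmp4*, *Id1*, *Id3* and *Smad6* were enriched in YTHDF2 IP over input, by 4.09-, 2.91-, 2.90- and 2.15-fold. With a fixed dispersion of 0.1, an alternative set because the input has no replicate, *Bmp4* alone kept its call. *Smad1*, *Id2* and *Bmpr2* were higher in IP by less than 2-fold, *Bmpr1a* and *Smad5* were lower, and *Id4* was level with the input in this fit. In this fit the pathway therefore did not move as a block, and close relatives such as *Smad1* and *Smad5* lay on opposite sides of the input. With a trend of fold change on GC content over all genes removed, 9 members were higher and *Smad5* alone was lower. With the fixed dispersion neither *Smad1* nor *Smad5* passed a threshold. A transcript was called enriched or depleted at an adjusted p under 0.05 in edgeR's quasi-likelihood test with Benjamini-Hochberg adjustment over all 19601 genes tested, together with a fold over 2. By this rule 15.0% of all tested genes were enriched and 13.0% were depleted, against 4 and 0 of the 10 members. Without the limit on fold, 7 members were higher and 2 were lower, where 28.4% and 28.9% of all tested genes were. The same 7 members were above the input in both IP libraries and the same 2 were below it in both, against 44.2% and 45.3% of all tested genes. The median log2 fold change of the members was 0.77, and that of all tested genes was 0.01, with quartiles of -0.72 and 0.81. Since the input is a single library, the error of each fold change comes from the spread between the IP libraries and does not hold the spread of the input.

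**Figure D1:**
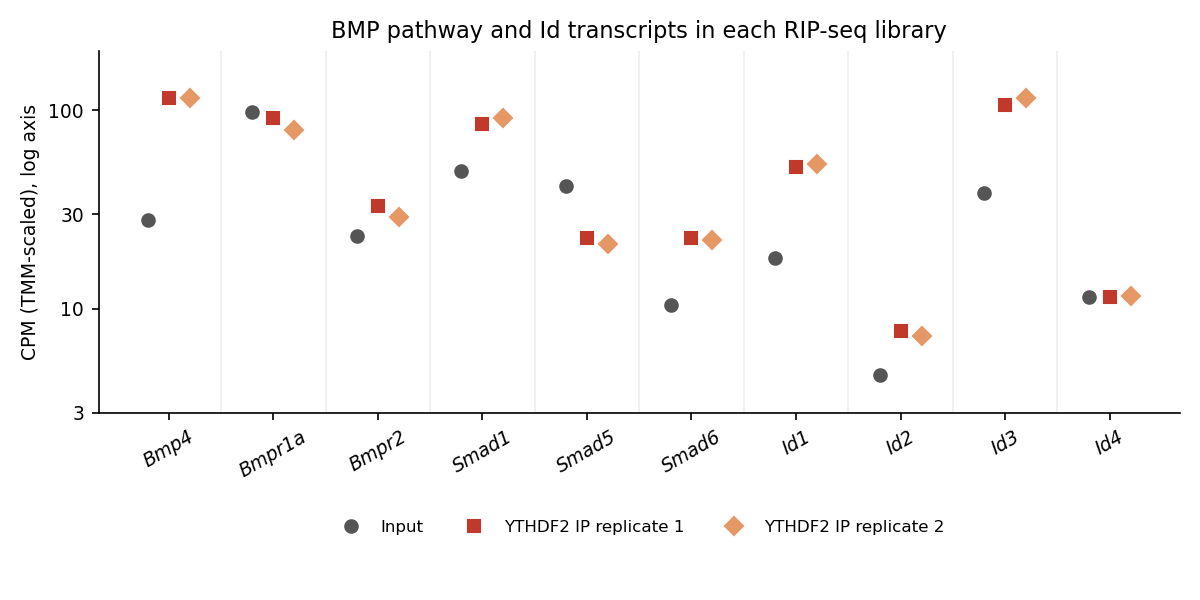
Level of each member in CPM (scaled by TMM, log axis) in the input (grey circles) and IP replicates 1 (red squares) and 2 (orange diamonds). The IP points of 7 members lie above the input point, those of *Bmpr1a* and *Smad5* lie below it, and those of *Id4*, at 11.5 and 11.6 CPM, lie on it.

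*Bmp4* encodes the ligand, and lies on chromosome 14 (46383525 to 46390669, - strand). It was the most enriched member. The input held 997 of its reads, and the IP libraries held 4153 and 4240, which is 28.2 CPM against 115 and 116 CPM. Its log2 fold change was 2.03 ± 0.085 (SE, n = 2 IP libraries against 1 input; adjusted p = 5.72e-22 in edgeR), higher than in 93.6% of all tested genes. The IP libraries differed little, at 2.03 and 2.04 when each was set against the input alone. Of its exonic bases, 84 are shared with the antisense gene *Gm15217*, and as strand was not used in counting, reads over both genes were left out. The 3 protein-coding genes whose levels over the 3 libraries were most like those of *Bmp4* were *Tmem127*, *Pgpep1* and *Coa6*, at Euclidean distances of 0.06, 0.06 and 0.09 in log2 CPM.

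The fitted fold changes of the receptor transcripts were below 2-fold. *Bmpr1a* (chromosome 14, 34411061 to 34503336, - strand), which encodes a type I receptor, counted 3494 in the input, 3326 in the first IP library and 2934 in the second. It was 1.15-fold lower in IP, with a log2 fold change of -0.20 ± 0.079 (SE, n = 2 against 1; adjusted p = 0.0315 in edgeR). Single libraries gave log2 ratios of -0.10 and -0.30, so the spread between the replicates was as large as the difference itself. The difference did not pass with total counts, TPM scaling, no filter, DESeq2 or the fixed dispersion, at adjusted p of 0.0769 to 0.85. *Bmpr2* (chromosome 1, 59764279 to 59878081, + strand), which encodes the type II receptor, went from an input count of 825 to IP counts of 1197 and 1065. It was 1.33-fold higher in IP, with a log2 fold change of 0.42 ± 0.122 (adjusted p = 0.00356 in edgeR). This difference did not pass under DESeq2 (adjusted p = 0.0567), with the fixed dispersion (0.668) or with a trend on exon density (exons per kilobase of transcript) removed (0.2). The log2 fold change of *Bmpr2* exceeded that of *Bmpr1a* by 0.61 ± 0.145 (SE). The transcripts of these receptors are poor in G and C, with a GC content over their exons of 42.6% for *Bmpr1a* and 38.4% for *Bmpr2*, where the median of coding genes was 50.5%. Once a trend of fold change on GC content over all genes was removed, the log2 fold change of *Bmpr1a* turned to 0.37 and that of *Bmpr2* became 1.32, past the threshold for enrichment. The direction of *Bmpr1a* therefore depended on this step, and the part of GC content in either value was not tested.

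The SMADs that carry the signal parted. *Smad1* (chromosome 8, 79338395 to 79399428, - strand) went from an input count of 1754 to IP counts of 3102 and 3363, which is 1.79-fold or 0.84 ± 0.082 on the log2 scale (SE; adjusted p = 2.38e-11 in edgeR). *Smad5* (chromosome 13, 56703010 to 56742378, + strand) went the other way, from 1475 counts to 817 and 781, which is 1.90-fold lower or -0.92 ± 0.113 on the log2 scale (adjusted p = 4.73e-09). Neither passed the 2-fold limit, and in neither did the IP libraries overlap the input. The encoded proteins are close relatives with a shared role, and both coding sequences are 1398 bases long, yet their log2 fold changes differed by 1.77 ± 0.140 (SE). *Smad5* has the longer 3′ UTR, of 4900 bases against 1254 bases in *Smad1*. Its transcript holds 10 GGACT motifs, 8 of them in the 3′ UTR, while *Smad1* holds 2. When a trend on the number of exons per kilobase was removed, an alternative added after the data were seen, *Smad5* passed the limit for depletion at -1.14. With the fixed dispersion neither *Smad1* (adjusted p = 0.334) nor *Smad5* (0.245) differed from the input at the threshold.

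*Smad6* (chromosome 9, 63953076 to 64022085, - strand) encodes the inhibitory SMAD, itself a target of the pathway. Its input count of 370 stood against 822 and 817 in IP. Its log2 fold change was 1.11 ± 0.147 (SE; adjusted p = 2.86e-08 in edgeR), just past the limit for enrichment, with single-library ratios of 1.12 and 1.09. Of the members it had the highest GC content, 60.9%, which is higher than in 96.6% of coding genes. The call was lost when the trend on GC content was removed (log2 fold change 0.48) or that on exon density (0.86), and with the fixed dispersion (adjusted p = 0.191).

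**Figure D2:**
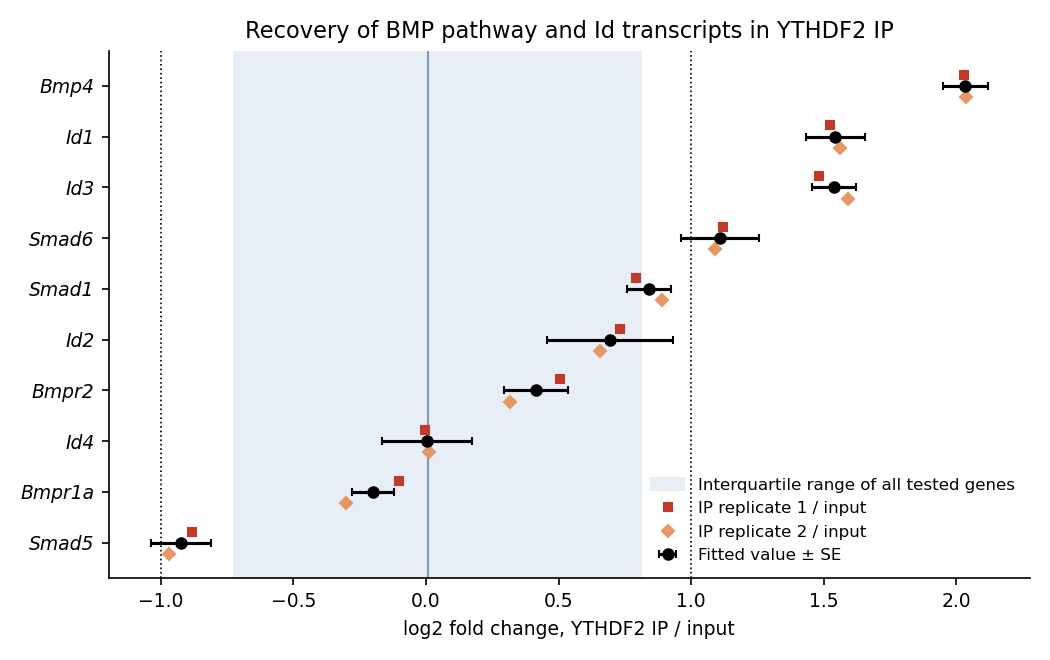
Fitted log2 fold change (IP over input) of each member with its SE (black), beside the log2 ratio of IP replicate 1 (red squares) and IP replicate 2 (orange diamonds) to the input; the shaded band and its line give the interquartile range and median of all 19601 tested genes, and dotted lines mark a fold of 2. *Bmp4*, *Id1*, *Id3* and *Smad6* lie beyond the upper line in both IP libraries, and no member lies beyond the lower line.

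Of the Id genes, *Id1* and *Id3* were enriched almost equally, *Id2* was higher by less than 2-fold and *Id4* did not differ from the input beyond its error. For *Id1* (chromosome 2, 152736251 to 152737410, + strand) an input count of 640 stood against 1877 and 1958 in IP, which is 1.54 ± 0.112 on the log2 scale (SE; adjusted p = 6.59e-15 in edgeR). For *Id3* (chromosome 4, 136143822 to 136145392, + strand) the input count was 1352 and the IP counts were 3854 and 4219, which is 1.54 ± 0.084 (adjusted p = 1.83e-18). The gap between these 2 genes, 0.01 ± 0.140, was far within the error, and their single-library ratios overlapped, at 1.52 and 1.56 for *Id1* and 1.48 and 1.59 for *Id3*. With the fixed dispersion both lost their calls, at adjusted p of 0.0608 and 0.0611.

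*Id2* (chromosome 12, 25093799 to 25096092, - strand) was the member with the fewest counts, namely 164 in input against 278 and 268 in IP. It was 1.62-fold higher in IP, with a log2 fold change of 0.70 ± 0.238 (SE; adjusted p = 0.0118 in edgeR; 0.129 under DESeq2 and 0.449 with the fixed dispersion). *Id4* (chromosome 13, 48261116 to 48266028, + strand) counted 407 in input against 414 and 425 in IP, which is 0.00 ± 0.170 (adjusted p = 0.987), and it shares 82 exonic bases with the antisense gene *A330033J07Rik*. The IP libraries of *Id2* lay above the input, and those of *Id4* lay on either side of it. *Id3* exceeded *Id2* by 0.84 ± 0.252 and *Id4* by 1.53 ± 0.19 on the log2 scale, and *Id2* exceeded *Id4* by 0.69 ± 0.292. With the trend on GC content removed, *Id2*, at a GC content of 42.4%, passed the limit for enrichment (log2 fold change 1.28), while *Id1* and *Id3* stayed past it at 1.29 and 1.23. *Id4*, at a GC content of 43.2%, was then higher in IP by less than 2-fold (0.53, adjusted p = 0.00879). Summed over the Id genes, the level was 72.4 CPM in the input and 178 and 188 CPM in the IP libraries, and summed over the 6 signalling members it was 252 CPM in the input and 372 and 360 CPM in the IP libraries.

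By fold change the order ran from *Bmp4* through *Id1*, *Id3*, *Smad6*, *Smad1*, *Id2*, *Bmpr2*, *Id4* and *Bmpr1a* to *Smad5*. Neighbours in this order were set apart by more than 2 SE in 3 places, namely *Bmp4* over *Id1* (0.49 ± 0.140), *Id3* over *Smad6* (0.43 ± 0.169) and *Bmpr1a* over *Smad5* (0.73 ± 0.138). From *Smad6* down to *Bmpr1a* no gap between neighbours exceeded 2 SE, the widest being *Bmpr2* over *Id4* (0.41 ± 0.209). These gaps were described and not tested for significance.

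Levels between genes were compared per length, in TPM, computed here by dividing counts by exonic length and scaling each library to the same total. In the input *Id3* stood highest, at 81.6 TPM. *Id1*, *Smad1*, *Bmpr1a* and *Bmp4* followed between 27.9 and 31.7 TPM, and *Smad5*, *Id2*, *Smad6*, *Id4* and *Bmpr2* lay between 4.28 and 11.5 TPM. In IP, *Bmp4* moved from rank 5 to rank 2, at 127 TPM in each library, behind *Id3* at 254 and 272 TPM and ahead of *Id1* at 102 and 104 TPM. *Smad1* followed with 60.3 and 64.1 TPM, *Bmpr1a* with 32.0 and 27.7 TPM, *Smad6* with 17.2 and 16.8 TPM and *Id2* with 13.7 and 13.0 TPM. The lowest were *Smad5* (6.93 and 6.50 TPM), *Id4* (6.56 and 6.60 TPM) and *Bmpr2* (6.78 and 5.91 TPM), whose values overlapped each other. As there is 1 input library, the spread of the input levels is not known.

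The members were then set against features of their transcripts. Members with a short 3′ UTR were the more enriched. The 4 enriched members had 3′ UTRs of 334 bases (*Bmp4*), 397 bases (*Id1*), 448 bases (*Smad6*) and 536 bases (*Id3*), all below the median of coding genes of 938 bases. *Id4*, *Bmpr1a*, *Smad5* and *Bmpr2* had 3′ UTRs of 3095, 3476, 4900 and 7596 bases. Over the 10 members the Spearman correlation of the log2 fold change with the length of the 3′ UTR was -0.90, and over the 15011 coding genes it was 0.01. After removal of the GC trend, an alternative for these correlations added after the data were seen, they were -0.43 and 0.14, so the strength of the relation over the members depended on that step. With the length of the whole transcript it was -0.79 over the members and -0.04 over the coding genes, and -0.41 and 0.05 once the GC trend was removed. All points come from the same 3 libraries, and 10 genes of 1 pathway are too few for more than a description.

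The density of GGAC, the 4 letters that GGACT shares with other m6A contexts, ran the same way in the members and in all coding genes. *Id1*, *Id2* and *Id3* held 9.64, 9.43 and 9.44 GGAC per kilobase of transcript, higher than in 98.6%, 98.4% and 98.4% of coding genes, whose median was 4.25. *Bmp4* held 6.31 per kilobase, *Smad6* 4.38, *Smad1* 3.99, *Smad5* 3.64, *Id4* 3.03, *Bmpr1a* 2.55 and *Bmpr2* 2.07. The Spearman correlation with the log2 fold change was 0.76 over the 10 members and 0.27 over the coding genes, and 0.36 and 0.05 once the GC trend was removed. For GC content the same correlations were 0.66 and 0.36, for GGACT per kilobase 0.49 and 0.15, and for exons per kilobase 0.32 and -0.31. Over all coding genes the median log2 fold change was -0.07 for the 9003 with no GGACT near the stop codon, 0.09 for the 4508 with 1 and 0.30 for the 1500 with at least 2. Of the 6 members with such a motif 5 were higher in IP, namely *Bmp4*, *Bmpr2*, *Id1*, *Id2* and *Id3*, and *Smad5* was lower. Of the 4 without one, *Smad1* and *Smad6* were higher, *Bmpr1a* was lower and *Id4* did not pass in the TMM-scaled edgeR fit. With the GC trend removed *Bmpr1a* (0.37) and *Id4* (0.53) were also higher in IP, and *Smad5* stayed lower.

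**Figure D3:**
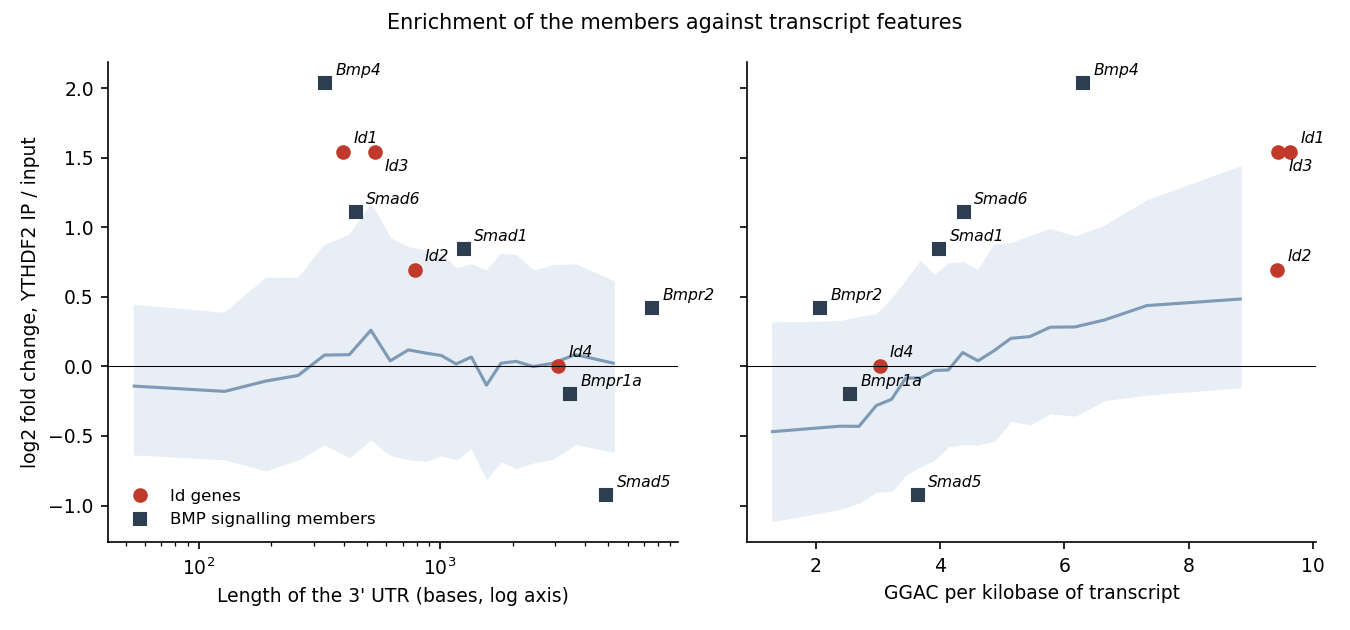
Log2 fold change (IP over input) of the members against the length of the 3′ UTR (left, log axis) and the number of GGAC per kilobase of transcript (right), with Id genes as red circles and the signalling members as dark squares; the line and band give the median and interquartile range over bins of the 15011 coding genes. The members fall from *Bmp4*, at 334 bases, to *Smad5*, at 4900 bases, *Bmpr2* with the longest 3′ UTR (7596 bases) stands above that fall at 0.42, and the line on the left stays near 0, while that on the right climbs with GGAC density.

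Other genes of the pathway were examined by role in a list of 53 genes. Of these, 43 had enough counts to be tested, and the other 10 had at most 8 counts in any library. Of the 43, 13 were enriched and 1 was depleted, where 15.0% and 13.0% of all tested genes were, and without the limit on fold 21 were higher and 5 were lower, where 28.4% and 28.9% of all tested genes were. The count of 13 fell to 8 with the GC trend removed, where 3 were depleted, to 8 under DESeq2 and to 5 with the fixed dispersion. Over all genes 2936 were enriched, against 2857, 2437 and 1577 at these settings, the 2437 being of 27890 genes. The depleted count over all genes went from 2543 to 2023 with the GC trend removed. The median log2 fold change of the 43 genes was 0.48. The call of 9 of the 13 enriched genes rests on a mean of over 100 counts per library. Among the 13 is *Grem1*, which has no input count and entered the test through its IP counts alone. With halved counts *Grem1* was not tested, and 12 genes of the list were enriched.

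Of the ligands and receptors 1 each was enriched, of 8 and 5 tested, which is near the share of 15.0% over all tested genes. The ligand *Bmp2* counted 13 in input against 34 and 57 in IP (log2 fold change 1.76 ± 0.667, adjusted p = 0.0234 in edgeR; 0.172 under DESeq2 and 0.0723 with the fixed dispersion). *Acvrl1*, a type I receptor of the BMP9 branch, had 68, 139 and 163 counts (1.11 ± 0.335), and lost its call under DESeq2 (adjusted p = 0.0796), with the fixed dispersion (0.21) and with the GC trend removed (log2 fold change 0.76). The ligands *Bmp8a* and *Gdf7* became depleted with the trend on GC content removed, at -1.30 and -2.15, from -0.76 ± 0.429 and -0.94 ± 0.782. *Gdf7* rests on counts of 30, 14 and 18 in the input and IP replicates 1 and 2.

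Of the 5 co-receptors 4 were enriched, where 15.0% of all tested genes were. *Rgma* and *Rgmb*, members of the repulsive guidance molecule family that binds BMP ligands, had 166, 710 and 688 counts and 553, 1765 and 1656 counts in the input and IP replicates 1 and 2. Their log2 fold changes were 2.03 ± 0.178 and 1.59 ± 0.119 (adjusted p = 1.24e-12 and 1.77e-14 in edgeR). *Hjv*, which encodes hemojuvelin of the same family, had 54, 249 and 184 counts (1.96 ± 0.326). *Eng*, which encodes endoglin, had 3294, 8615 and 9077 counts (1.39 ± 0.066, adjusted p = 2.71e-20). In all 4 the IP libraries lay far above the input, while *Neo1*, which encodes the receptor neogenin, was at -0.10 ± 0.071. With the GC trend removed *Eng* fell under the limit (0.96) and *Rgma* was at 1.39, and with a fixed dispersion of 0.1 *Eng* and *Rgmb* lost their calls (adjusted p = 0.0934 and 0.0536).

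Of the 7 intracellular inhibitors 2 were enriched, *Bambi* and *Ski*, where 15.0% of all tested genes were. *Bambi*, which encodes a decoy receptor without a kinase domain and is known as a target of BMP signalling, rose from an input count of 478 to 2604 and 2602 in IP. At 2.41 ± 0.109 on the log2 scale (5.30-fold, adjusted p = 5.83e-21 in edgeR) it was more enriched than any of the 10 members. *Ski*, a co-repressor that binds SMADs, lay just past the limit at 1.03 ± 0.064, with 4465, 9007 and 9696 counts, and fell under it with the trend on GC content (0.75) or on exon density (0.78) removed, without IP replicate 2 (0.99, by fold alone), and lost its call with the fixed dispersion (adjusted p = 0.227). Its relative *Skil* was lower by less than 2-fold, with 1391, 953 and 818 counts (-0.69 ± 0.117, adjusted p = 3.46e-06).

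The common SMAD, *Smad4*, was lower by less than 2-fold (-0.39 ± 0.067, adjusted p = 4.15e-06), as *Smad5* was, and *Smad9* was at -0.66 ± 0.397 (adjusted p = 0.158). Of the extracellular antagonists *Nog*, which encodes noggin, had 16, 69 and 66 counts (2.03 ± 0.552) and *Nbl1* had 44, 105 and 89 counts (1.10 ± 0.410). The call of *Nbl1* was lost with the GC trend (0.45) or the exon density trend (0.97) removed, under DESeq2 (adjusted p = 0.181) and with the fixed dispersion (0.227). Without IP replicate 1 its log2 fold change fell under the limit (0.96, by fold alone). *Grem1*, which encodes gremlin, had no input count against 18 and 8 in IP, at least 4.23-fold higher by the mean of the IP libraries, and at least 2.58-fold by IP replicate 2 alone, against a floor of 3 counts in the input library; its call was lost under DESeq2 (adjusted p = 0.0678). The antagonist *Bmper* had 22, 2 and 6 counts, and its log2 fold change of -2.47 ± 1.262 passed no threshold (adjusted p = 0.095), except with a fixed dispersion of 0.1 (adjusted p = 0.0149). Each of these 4 antagonists rests on few counts. The antagonist with most counts, *Twsg1*, was lower by less than 2-fold, with 3767, 2519 and 2321 counts (-0.68 ± 0.077, adjusted p = 1.03e-09), and *Chrd* and *Fst* were at -0.03 ± 0.305 and -0.32 ± 0.384.

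*Dusp9*, an X-linked phosphatase gene known as a BMP target in ESCs, was the only depleted gene of the list, at 6824 counts in input against 2634 and 2638 in IP. Its log2 fold change was -1.41 ± 0.066 (2.66-fold lower, adjusted p = 1.98e-20 in edgeR), and its call was lost with the fixed dispersion (adjusted p = 0.0538). *Gata2*, another target of BMP signalling, had 77, 157 and 175 counts (1.07 ± 0.318). Its call was lost with the GC trend (0.64) or the exon density trend (0.87) removed, under DESeq2 (adjusted p = 0.074) and with the fixed dispersion (0.228). The target *Msx2* was at 0.82 ± 0.181, rising to 1.02 and past the limit with the trend on GC content removed. Of the bHLH factors that ID proteins bind, *Tcf3*, which encodes E2A, was enriched with 8029, 17097 and 18338 counts (1.10 ± 0.057, adjusted p = 5.33e-19), but it lost its call with the GC trend removed (0.49) and with the fixed dispersion (adjusted p = 0.19). *Tcf12* was lower by less than 2-fold at -0.67 ± 0.121 (adjusted p = 1.04e-05), and *Tcf4* was at -0.03 ± 0.105. Thus known targets of the pathway stood at both ends, with *Bambi*, *Id1* and *Id3* enriched and *Dusp9* depleted.

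**Figure D4:**
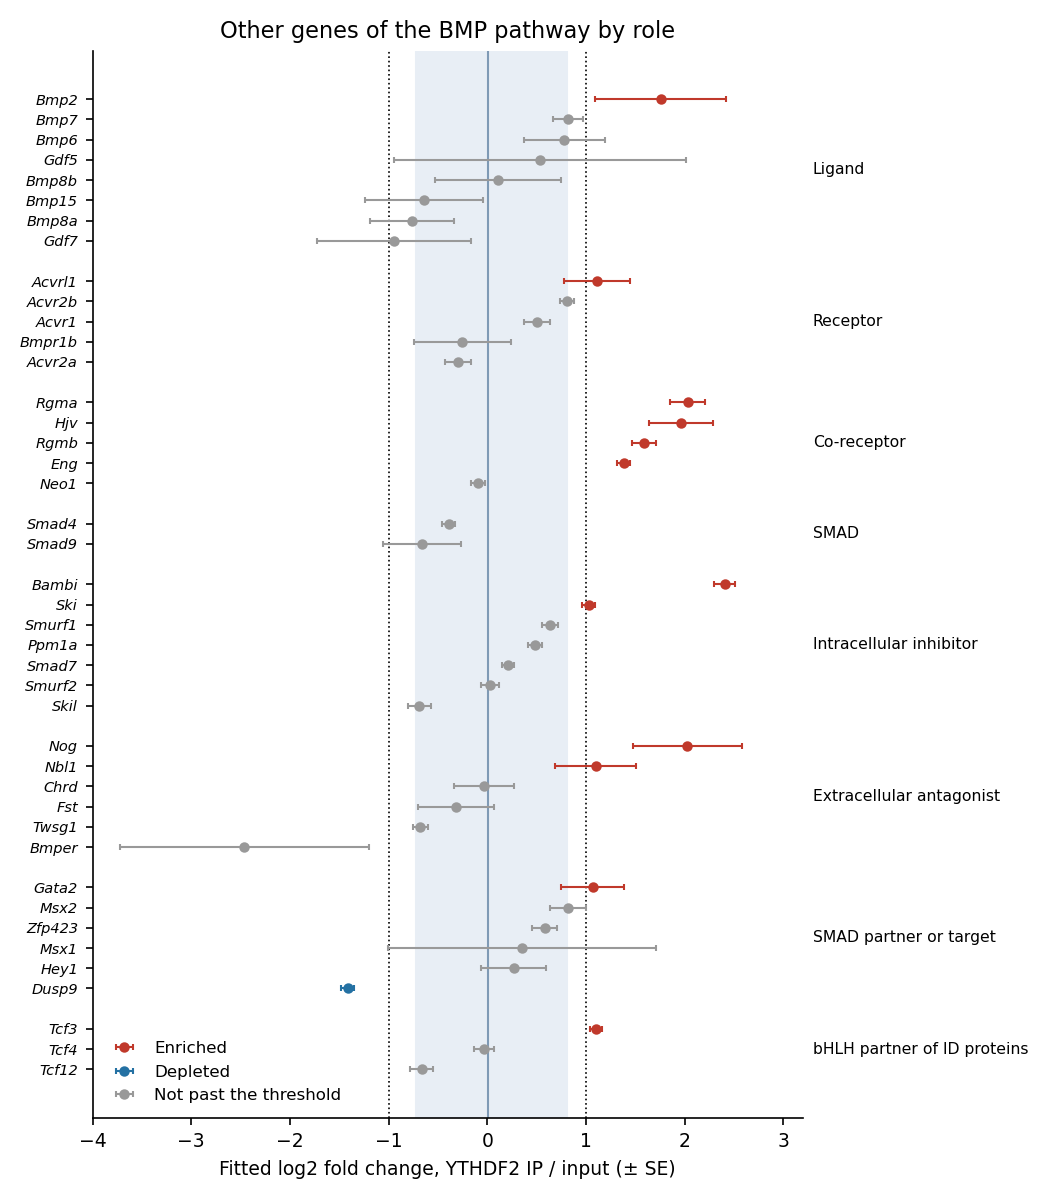
Fitted log2 fold change (IP over input) with SE of 42 of the 43 tested genes in the wider list, grouped by role and coloured by call; the band, its line and the dotted lines are as in the plot of the members, and *Grem1* is left out because it has no count in the input. The co-receptors *Rgma*, *Hjv*, *Rgmb* and *Eng* lie together beyond the upper line, and *Dusp9* alone is marked as depleted.

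**Figure D5:**
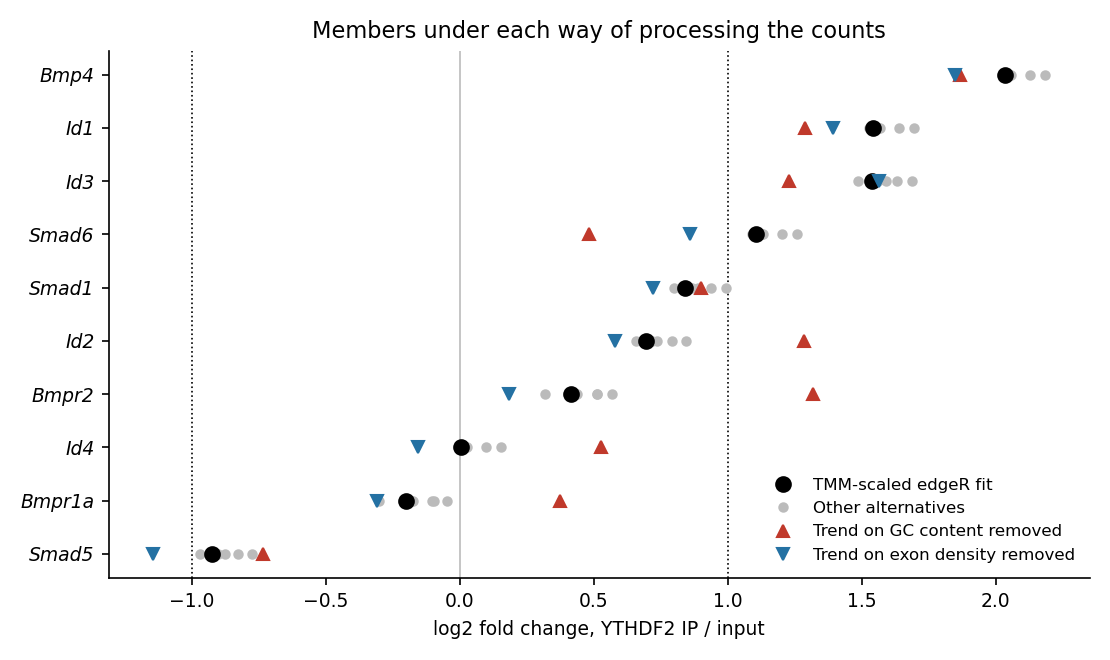
Log2 fold change (IP over input) of each member in the TMM-scaled edgeR fit (black) and under 12 alternatives, with the fits corrected for GC content in red and for exon density in blue; dotted lines mark a fold of 2. *Bmp4*, *Id1* and *Id3* stay to the right of the upper line throughout, while *Bmpr2* and *Id2* cross it to 1.32 and 1.28 and *Smad6* drops to 0.48 with the GC trend removed.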

How the data were processed

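RIP-seq libraries of Dox-treated E14 ESCs, 1 input and 2 YTHDF2 IP, were grouped by sample title. The authors deposited raw read counts by gene. Per the file headers these came from featureCounts 2.0.3 (RefSeq exons, mm10), run without strand and with each mate counted on its own. Per the labels, HISAT2 2.2.1 and fastp 0.19.4 were used upstream. The methods describe IP from cleared lysate, the labels IP of Trizol-extracted RNA, and the counts do not tell which was done. By default the tool drops reads that overlap several genes.

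With edgeR 4.0.16 (R 4.3.3), filterByExpr left 19601 genes, which were scaled by TMM (factors 0.957, 1.02 and 1.02) and compared by the robust quasi-likelihood test with Benjamini-Hochberg adjustment. With 1 residual degree of freedom, from the IP libraries (coefficient of variation 7.33%), p-values measure the spread between those libraries, which may be technical. SEs come from the log2 fold change and its F statistic, and single-library ratios use a pseudocount of 0.5. Alternatives were DESeq2 1.42.0, other scalings, no filter on low counts, halved counts, a fixed dispersion of 0.1, removal of loess trends on GC content or, added later, exon density, and leaving out mitochondrial genes or 1 IP library. Named genes were the 10 members, genes of the wider list that were called or whose call changed, and the 3 genes nearest the highest and the lowest member, of which those nearest the lowest are not reported here. *Smad4*, *Smad9*, *Neo1*, *Skil*, *Twsg1*, *Chrd*, *Fst*, *Tcf4* and *Tcf12* were named after their values were seen. The members and lists were chosen with earlier results of these data known. Sequences are from RefSeq on GRCm38.p6.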

Additional observations from a re-analysis of the deposited data

How the results depend on the processing

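Across the 10 members and 12 alternatives, 109 values kept their direction and their side of the threshold. 3 changed sign, namely *Bmpr1a* with the GC trend removed (0.37, adjusted p = 0.000143 in edgeR, range over its alternatives 0.000143 to 0.85) and *Id4* with halved counts (-0.0034) and with the exon density trend removed (-0.15), neither of which passed a threshold. The 4 enriched members were the same genes under DESeq2, the other scalings, no filter, halved counts and without mitochondrial genes. With a fixed dispersion of 0.1, set because the input has no replicate, 1 member was enriched, *Bmp4* (adjusted p = 0.0127), while *Smad6* (0.191), *Id1* (0.0608) and *Id3* (0.0611) lost their calls; 1 member was then higher and 0 were lower at any fold. Lower at any fold was 1 member, not 2, with total counts, TPM scaling, no filter, the GC trend removed and DESeq2, each time *Smad5*. Higher at any fold were 9 members with the GC trend removed, 6 with the exon density trend removed and 5 under DESeq2, where *Bmpr2* and *Id2* did not pass (adjusted p ranges over their alternatives 1.43e-11 to 0.668 and 1.79e-05 to 0.449). With the exon density trend removed 1 member, *Smad5*, was depleted. In the wider list 8 genes were enriched and 3 depleted with the GC trend removed (all tested genes 2857 and 2023). *Acvrl1*, *Eng*, *Ski*, *Nbl1*, *Gata2* and *Tcf3* then lost their calls. Under DESeq2 8 were enriched (2437 of 27890 over all genes). With the fixed dispersion 5 were enriched (*Bambi*, *Rgma*, *Hjv*, *Nog* and *Grem1*), 5 higher and 1 lower at any fold. The call of *Grem1*, without an input count, rests on its IP counts alone. Without either IP replicate, by fold alone and with no test, *Bmp4*, *Id1*, *Id3* and *Smad6* stayed above 2-fold and no member was lower by 2-fold. In the wider list *Nbl1* fell to 0.96 without IP replicate 1 and *Ski* to 0.99 without IP replicate 2. TPM scaling moved the median of all tested genes by 0.15 and the exon density trend by 0.10, and TPM scaling turned the split of all calls from 2936 enriched and 2543 depleted to 3558 and 2003; the fixed dispersion left 1577 and 1531. No paired analysis was possible because the input has a single library with no replicate number. Why these values moved was not tested. Each mate of a pair was counted, so sampling noise exceeds what the counts imply, most of all for *Id2* and the wider genes with fewer than 100 counts.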
